A study of Mus musculus with 8 samples.

Results

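Cardiac muscle cells sense load through their Z-discs, the lateral anchors of the sarcomere, through the elastic protein titin and through the cell contacts where actin filaments end. A group of genes known to respond to stretch or damage encodes proteins of these sites: the muscle ankyrin repeat proteins Ankrd1, Ankrd2 and Ankrd23, which bind titin and can also enter the nucleus, the LIM proteins Csrp3, Fhl1 and Fhl2, the Xin proteins Xirp1 and Xirp2, and the actin cross-linkers Flnc (filamin C) and Actn1 (non-muscle alpha-actinin). These 10 genes were listed by name as mechanical stress and cytoskeletal remodelling genes, with earlier results of these data known. They are described here among the 15156 genes with a retained probe. Such a probe had a signal well above local background on at least 4 arrays.

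Ventricles of adult male mice of the C57BL\6 background were collected 24 hours after surgery. In 4 MI mice the anterior interventricular artery had been permanently ligated, and 4 sham-operated mice had undergone the same surgery with no ligation, so that both groups share the effects of the operation. No allele or agent distinguished the groups. RNA of each mouse was hybridized to its own Agilent SurePrint G3 array in a single colour, and the RNA came from the ventricles as a whole, in which infarcted and remote muscle were not separated. The 8 arrays lay on 1 slide, whose 2 rows held both groups equally. Spots well above background made up 58.6% to 66.4% of an array. Log2 signals correlated between mice of the same group with r from 0.993 to 0.998. The tissue label was matched by the 10 cardiomyocyte markers, among them Myl3, Actc1 and Myl2, all of which had a retained probe. Their summed signal was 21.29 to 21.88 on the log2 scale in MI mice against 21.45 to 21.90 after sham operation.

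Promoter sequences show which of these genes carry, close to their start site, the letters of binding motifs of factors known from load and stress responses in muscle. They were taken from the RefSeq annotation of GRCm38.p6, which holds 14 promoters of 9 of the 10 genes, all but Xirp1, each reaching from 250 bases before to 50 bases after a transcription start. Both strands were searched for CATTCC, the MCAT element bound by TEAD factors, for the CArG box of serum response factor (SRF), for the MEF2 site and for TGANTCA, the AP-1 motif. The promoters of Ankrd1 (chr19:36119795-36120094, minus strand), Xirp2 (chr2:67445752-67446051, plus strand), Fhl1 (chrX:56779433-56779732, plus strand, the first listed) and Fhl2 (chr1:43196712-43197011, minus strand, the first listed) are printed because between them they hold all 4 motifs. They run 5′ to 3′ along the coding strand, with the matched letters in capitals.
Ankrd1: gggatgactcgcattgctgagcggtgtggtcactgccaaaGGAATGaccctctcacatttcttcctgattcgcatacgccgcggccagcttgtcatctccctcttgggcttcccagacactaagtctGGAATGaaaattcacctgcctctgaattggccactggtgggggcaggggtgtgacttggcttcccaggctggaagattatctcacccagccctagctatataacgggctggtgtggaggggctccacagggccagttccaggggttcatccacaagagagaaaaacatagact
Xirp2: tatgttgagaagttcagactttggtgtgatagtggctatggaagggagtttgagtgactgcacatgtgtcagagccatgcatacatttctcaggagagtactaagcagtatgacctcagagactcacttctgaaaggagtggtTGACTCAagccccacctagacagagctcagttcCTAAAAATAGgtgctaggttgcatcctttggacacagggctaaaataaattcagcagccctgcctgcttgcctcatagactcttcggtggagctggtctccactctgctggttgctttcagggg
Fhl1: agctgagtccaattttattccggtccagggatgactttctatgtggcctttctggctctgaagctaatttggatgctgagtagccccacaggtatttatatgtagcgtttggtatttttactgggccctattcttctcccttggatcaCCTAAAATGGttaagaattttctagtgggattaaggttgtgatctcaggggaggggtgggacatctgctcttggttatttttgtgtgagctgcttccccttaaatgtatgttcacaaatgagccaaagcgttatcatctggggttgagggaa
Fhl2: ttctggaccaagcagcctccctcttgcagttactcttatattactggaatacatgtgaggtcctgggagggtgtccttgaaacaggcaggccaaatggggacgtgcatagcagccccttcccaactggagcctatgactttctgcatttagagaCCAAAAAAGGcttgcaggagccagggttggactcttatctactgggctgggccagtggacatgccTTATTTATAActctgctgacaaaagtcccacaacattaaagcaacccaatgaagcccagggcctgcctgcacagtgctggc

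The capitals in the Ankrd1 promoter are CATTCC read on the opposite strand, 210 and 123 bases before the start. CATTCC was also present in promoters of Ankrd23 and Flnc, and 14.7% of 32851 promoters of the same length hold it. In Xirp2 the AP-1 motif lay 107 bases and the MEF2 site 74 bases before the start. The AP-1 motif is present in 7.81% and the MEF2 site in 3.19% of all promoters. The Fhl1 promoter held a CArG box 102 bases before its start, and the Fhl2 promoter held a CArG box 96 bases and a MEF2 site 31 bases before its start, with a further CArG box 31 bases before the start of the second Fhl2 promoter. CArG boxes are present in 1.63% of all promoters. In the 4 printed promoters no match overlapped another, while the promoters of Flnc overlap and share 1 CATTCC site. The matches describe letters in these windows only.

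Signals were put on a common log2 scale with spike-in RNA, which gave each array a scale factor and an additive constant, and MI and sham-operated mice were compared with limma across all retained probes, with p adjusted over all of them. Of the 10 genes, 9 had the higher group mean after MI, 8 of them with an adjusted p under 0.05 in limma and 7 of them also past 2-fold. Over all 34038 retained probes, 0.978% were called past 2-fold with an adjusted p under 0.05, 0.94% upward and 0.0382% downward, and 3.73% had an adjusted p under 0.05 at any size, 3.38% upward. By the brightest probe of each gene, as the 10 genes were taken, 235 of 15156 genes were called upward and 12 downward. An adjusted p under 0.05 at any size was reached by 737 genes upward and 80 downward. In 9 of the 10 genes the groups did not overlap, MI being higher, against 8.96% of all retained probes and 6.58% with MI higher. The median log2 fold change of the 10 genes was 1.49, that of all retained probes 0.03. Because the genes were chosen with earlier results of these data known, these shares describe them and do not test them as a group. All 11 probes of these genes were well above background on all 8 arrays and none was saturated. In ventricular RNA, fewer cells of a type and less RNA per cell cannot be told apart, which holds for every gene below.

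**Figure D1:**
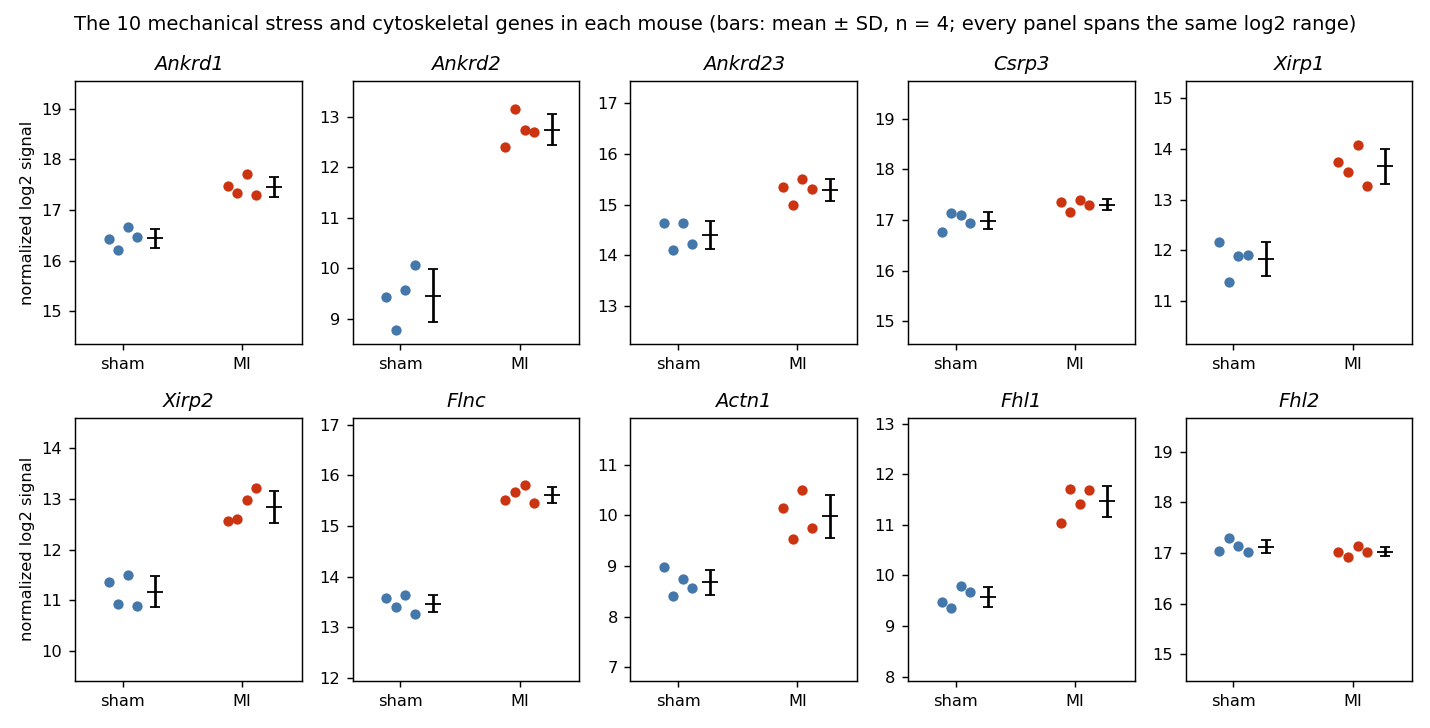
Normalized log2 signal (vertical axis) of each of the 10 genes in the 4 sham-operated mice (blue) and the 4 MI mice (red), with the mean ± SD of each group beside the points. Every panel spans the same log2 range, so that the 3.28 log2 rise of Ankrd2 and the overlapping groups of Fhl2 can be compared by eye.

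The muscle ankyrin repeat genes all rose, Ankrd2 by far more than its relatives. Ankrd1, which encodes the cardiac ankyrin repeat protein, had log2 signals of 17.47, 17.33, 17.72 and 17.30 in MI mice and 16.43, 16.21, 16.66 and 16.47 in sham-operated mice. The lowest MI mouse was above the highest of the sham-operated mice. The change was 1.01 ± 0.12 (SE, n = 4 and 4) on the log2 scale, or 2.02-fold, with a limma adjusted p = 0.00305. This places Ankrd1 at the 2-fold threshold: it was 0.88 with each array scaled to its 75th percentile, 0.98 after quantile normalization, 0.92 without MI replicate 3 and 0.93 without sham replicate 2, always with an adjusted p under 0.05.

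Ankrd2, known mainly from stretched skeletal muscle, had log2 signals of 12.40, 13.14, 12.74 and 12.69 in MI mice and 9.44, 8.78, 9.56 and 10.07 in sham-operated mice. The gap between the groups was wider than the whole range within either, although the sham-operated mice had the largest spread of any of the 10 genes (SD 0.53). Ankrd2 rose by 3.28 ± 0.26 (SE) on the log2 scale, 9.70-fold, with a limma adjusted p = 0.000512. Because its processed signal in sham-operated mice averaged 497, not far above the additive constants of 166 to 257 in the normalization, the fold depends on them: it was 13.8-fold without a constant.

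Ankrd23 had log2 signals of 15.34, 14.99, 15.50 and 15.32 in MI mice and 14.63, 14.10, 14.64 and 14.22 in sham-operated mice. The groups did not overlap, and the rise was 0.89 ± 0.16 (SE), 1.85-fold, with a limma adjusted p = 0.0179. Its other retained probe gave the same size of change, 0.89 ± 0.18 (SE) with an adjusted p = 0.0347. The adjusted p was above 0.05 without MI replicate 1 (0.0534), without MI replicate 3 (0.0598) and without sham replicate 4 (0.0659). Set against each other within each mouse, the log2 changes of Ankrd2 and Ankrd1 differed by 2.27 ± 0.29 (SE) and those of Ankrd2 and Ankrd23 by 2.39 ± 0.36 (SE). Both differences separated the groups fully, at the smallest p that 70 splits of 8 mice allow (exact two-sided permutation p = 0.0286, adjusted p = 0.0449 over 11 pairs). Ankrd23 and Ankrd1 differed in change by -0.12 ± 0.12 (SE, exact permutation p = 0.4).

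The Xin genes, whose actin-binding proteins sit at the intercalated disc, both rose. Xirp1 had log2 signals of 13.75, 13.54, 14.08 and 13.26 in MI mice against 12.16, 11.36, 11.89 and 11.91 in sham-operated mice. Its lowest MI mouse stood more than 1 log2 unit above its highest sham-operated mouse, and the change was 1.83 ± 0.21 (SE), 3.55-fold, with a limma adjusted p = 0.00215. Xirp2 had log2 signals of 12.57, 12.61, 12.98 and 13.22 in MI mice and 11.37, 10.93, 11.49 and 10.90 in sham-operated mice. It rose by 1.67 ± 0.19 (SE), 3.19-fold, with a limma adjusted p = 0.00213 and no overlap of the groups. The difference between both changes was 0.16 ± 0.30 (SE, exact permutation p = 0.657), and the mice did not keep one order: MI replicate 4 was the lowest MI mouse for Xirp1 and the highest for Xirp2.

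Flnc, which cross-links actin at the Z-disc and the cell membrane of muscle, had the smallest error relative to its change. Its log2 signals were 15.51, 15.66, 15.81 and 15.46 in MI mice and 13.57, 13.39, 13.64 and 13.26 in sham-operated mice. Both groups were tight and lay far apart, with a rise of 2.15 ± 0.11 (SE), 4.43-fold, and a limma adjusted p = 0.000135. Between 2.03 and 2.17 was obtained under the planned normalizations, 2.23 with arrays centred on the cardiomyocyte markers and between 2.08 and 2.21 when a mouse was left out. Its more widely expressed relative Flna changed by 0.71 ± 0.19 (SE, adjusted p = 0.0989, groups overlapping). The change of Flnc exceeded that of Flna by 1.44 ± 0.17 (SE), with an exact permutation p = 0.0286 and an adjusted p = 0.0449.

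Actn1, the alpha-actinin of stress fibres and focal adhesions, is made by many cell types, in contrast to Actn2, the alpha-actinin of the cardiac Z-disc. Actn1 had log2 signals of 10.14, 9.54, 10.50 and 9.76 in MI mice and 8.99, 8.41, 8.74 and 8.56 in sham-operated mice. The groups did not overlap, and the rise of 1.31 ± 0.21 (SE), 2.48-fold, had a limma adjusted p = 0.0125. Its mean processed signal was low, 201 in sham-operated mice and 858 in MI mice, and the size of its change is the least settled of the 10 genes: it was 4.04-fold without the additive constant and 3.84-fold in the deposited normalized values, and its adjusted p was 0.0797 when the variance of the probe was not moderated.

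Among the relatives of Actn1, Actn2 changed by 0.51 ± 0.20 (SE, adjusted p = 0.258, groups overlapping) and Actn4 by 0.68 ± 0.13 (SE, adjusted p = 0.0239). Actn1 exceeded them by 0.79 ± 0.11 (SE) and 0.63 ± 0.19 (SE), with an exact permutation p = 0.0286 and an adjusted p = 0.0449 for each. Actn3, the alpha-actinin of fast skeletal muscle, was well above background on 1 array and was not tested.

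Markers of other cell types were measured beside these genes. Of the 7 retained neutrophil markers, 5 rose past 2-fold, S100a9 among them at 2.78 ± 0.15 (SE), while Csf3r and Lcn2 had adjusted p of 0.886 and 0.409. Their summed signal was 17.95 to 18.50 on the log2 scale in MI mice, above the 16.28 to 16.90 of sham-operated mice. Among 7 monocyte and macrophage markers, 2 had an adjusted p under 0.05, with Cd14 rising by 2.08 ± 0.29 (SE) and Csf1r and Itgam at -0.15 ± 0.21 and 0.14 ± 0.24 (SE). Leaving out MI replicate 3, or either of sham replicates 2 and 4, reduced this count to 1, and without moderation of the variance it was 0. Each marker was read from its brightest probe only. The authors list Itgam among the differentially expressed genes of these arrays, so the value given here holds for that probe alone. Cd68 was listed but had no probe named through RefSeq. The authors report a rise of Cd68, and of the leukocyte marker CD45, on these arrays. The part of these cells in the rise of Actn1 and of the other genes was not tested.

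No fibroblast marker of 7 had an adjusted p under 0.05, with a median log2 change of -0.42 and Dcn at -0.37. The same was so for the 6 endothelial markers, with a median of 0.20 and Kdr at -0.15. It was also so for the 10 cardiomyocyte markers, with a median of -0.06 and a range of -0.55 to 0.30. Among these, Myl3 was at -0.06, Myl2 at -0.07 and Actc1 at 0.30. At an unadjusted limma p under 0.05 these counts were 0 fibroblast, 1 endothelial and 1 cardiomyocyte marker, and significance analysis of microarrays gave 0 for each list. The share of all retained probes at that unadjusted p is not given here. Without MI replicate 2, 1 fibroblast marker passed the adjusted threshold. Of 5 smooth muscle markers, Acta2 alone rose past 2-fold, and Smtn and Tagln were at -0.10 and -0.06. Ankrd2, Xirp1 and Fhl1 are also made by skeletal muscle, whose markers Myh1, Myh2, Myh4, Mylpf and Actn3 were well above background on 2 arrays or fewer, and of the 5 that were retained Atp2a1 changed by 0.46, Tnni2 by 0.19 and Pvalb by -0.09, with adjusted p of 0.359, 0.855 and 0.897, while Myoz1 rose by 0.48 (adjusted p = 0.0142). Their summed signal was 13.08 to 13.76 on the log2 scale in MI mice against 12.81 to 13.28 in the other group, and its part in these results was not tested.

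The LIM genes split. Fhl1, which binds titin and takes part in sensing of load, had log2 signals of 11.04, 11.71, 11.41 and 11.69 in MI mice and 9.47, 9.35, 9.78 and 9.68 in sham-operated mice. It rose by 1.89 ± 0.16 (SE), 3.71-fold, with a limma adjusted p = 0.000581 and groups more than 1 log2 unit apart, and the rise was 4.73-fold without the additive constant. Fhl2, its close relative and an abundant protein of the heart, had log2 signals of 17.01, 16.92, 17.15 and 17.01 in MI mice and 17.03, 17.29, 17.14 and 17.01 in sham-operated mice. The groups overlapped, with a difference of -0.09 ± 0.08 (SE, adjusted p = 0.729) and a 95% confidence interval of -0.28 to 0.10. Both ends of this interval are well under 2-fold. The changes of Fhl1 and Fhl2 differed by 1.98 ± 0.23 (SE, exact permutation p = 0.0286, adjusted p = 0.0449).

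Csrp3, the muscle LIM protein of the Z-disc, had log2 signals of 17.36, 17.16, 17.40 and 17.30 in MI mice and 16.77, 17.14, 17.10 and 16.94 in sham-operated mice. The groups were separated by a narrow margin, between MI replicate 2 and sham replicate 2, and overlapped when arrays were scaled to their 75th percentile, after quantile normalization and in the deposited normalized values. The difference was 0.32 ± 0.10 (SE), with a limma adjusted p = 0.142 and a 95% confidence interval of 0.09 to 0.54. In significance analysis of microarrays its adjusted p was 0.0334. The relatives of Csrp3, the LIM genes Csrp1 and Csrp2, changed by 0.25 ± 0.10 (SE, adjusted p = 0.269) and 0.09 ± 0.20 (SE, adjusted p = 0.935). Csrp3 differed from them by 0.07 ± 0.10 (SE, exact permutation p = 0.714) and 0.23 ± 0.20 (SE, exact permutation p = 0.257).

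**Figure D2:**
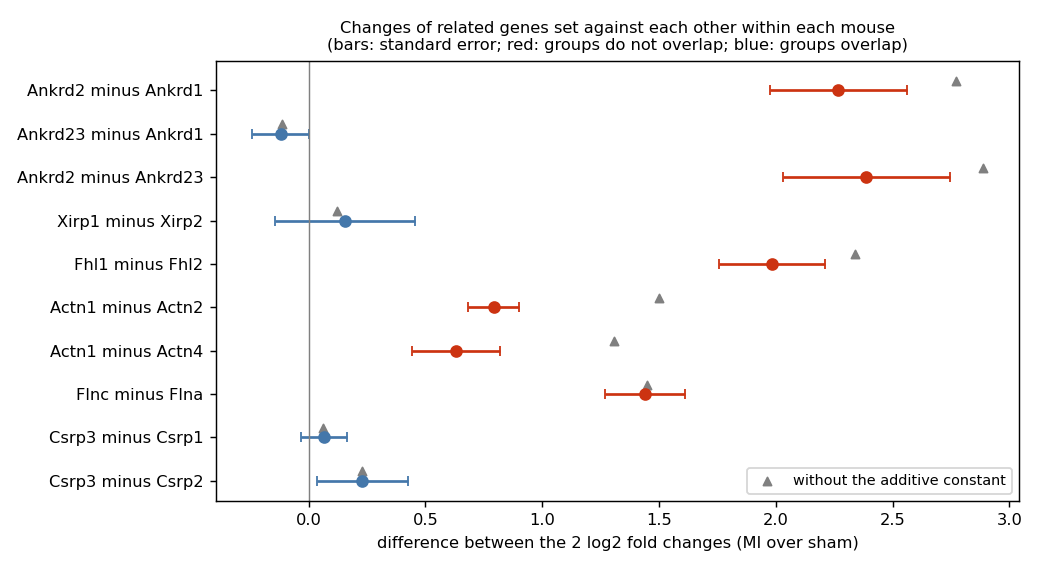
Difference between the log2 fold changes of 10 pairs of related genes (horizontal axis), computed as a within-mouse difference of log2 signals and compared between 4 MI and 4 sham-operated mice, with the standard error. The 6 red pairs separated the groups fully, the 4 blue pairs did not, and the grey triangles give the value without the additive constant, which was larger by more than the standard error in the pairs with Actn1, Ankrd2 and Fhl1.

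Of the 9 relatives with a retained probe, none was called past 2-fold and 2, among them Actn4, had an adjusted p under 0.05. Fhl3, Fhl5 and Ankrd6 changed by 0.17, 0.05 and 0.04, with adjusted p of 0.699, 0.872 and 0.884. At an unadjusted limma p under 0.05 there were 5, and significance analysis of microarrays passed 3 at any size of change. The shares of all retained probes at these looser thresholds are not given here, so both counts only describe the relatives. The median of the 9 was 0.25 beside 0.03 for all retained probes. Without MI replicate 1, MI replicate 3, MI replicate 4 or sham replicate 4, the count of relatives with an adjusted p under 0.05 was 0, and without sham replicate 1 or sham replicate 2 it was 1.

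The order of the log2 changes was Ankrd2, Flnc, Fhl1, Xirp1, Xirp2, Actn1, Ankrd1, Ankrd23, Csrp3 and Fhl2. Of the neighbours in this order, Xirp1 and Xirp2 and also Ankrd1 and Ankrd23 were set against each other, and their differences overlapped between the groups. The other neighbours were not tested against each other. The order depends on the scaling: without the additive constant Fhl1 (2.24) stood above Flnc (2.17), and Actn1 (2.01) above Xirp1 (1.89). The same exchanges of place occurred with 75th percentile scaling, quantile normalization and the deposited normalized values, but not with normexp or with centring on the cardiomyocyte markers. In 9 genes the difference was positive and in Fhl2 negative under all settings of processing, test and mouse left out. Within slide row 1 the changes spanned -0.19 to 3.66, with 9 of 10 above 0. In row 2 they spanned 0.00 to 2.90, with all 10 above 0, so that the sign of Fhl2 differed between the rows.

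**Figure D3:**
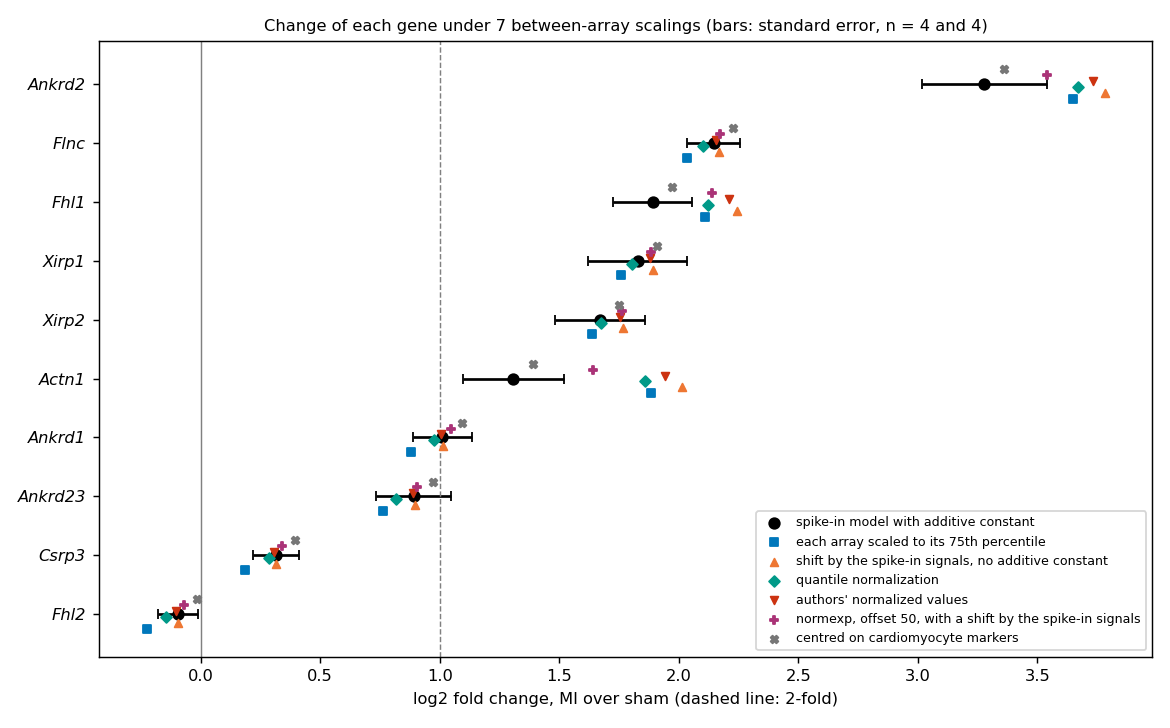
Log2 fold change of MI over sham-operated mice (horizontal axis) for each of the 10 genes under 7 between-array scalings, with the standard error of the scaling used in the text (black, n = 4 and 4). The dashed line marks 2-fold. Ankrd1 straddles it, from 0.88 to 1.05 in the planned scalings, and Actn1 has the widest scatter, from 1.31 to 2.01.

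The 10 genes did not follow one order of mice within a group. MI replicate 3 had the highest signal of the MI mice in 7 genes and the lowest in none. Sham replicate 3 was the highest of its group in 5 genes, and sham replicate 2 was the lowest in 6, with a mean deviation from its group of -0.21. The within-group SD ran from 0.09 for Fhl2 in MI mice to 0.53 for Ankrd2 in sham-operated mice. Over all 8 mice, the genes with the log2 pattern nearest to Ankrd1 were Wdr43, Ripk3, Arf6, Ankrd10 and Nop58, at a root mean square difference of 0.06 to 0.08 on centred log2 values among 15086 genes. Nearest to Flnc were Fpr2, Tubb6, Enah, Lilra6 and Inhba, at 0.12 to 0.15. Fhl2 lay nearest to Fgf7, Tmem54, Trim42, Sly and Tmsb15b2, at 0.06. All 5 changed little themselves, by -0.13 to -0.04 (limma adjusted p of 0.526 to 0.896). Of the other 9 genes, Ankrd23 was the nearest to Ankrd1 (0.16), at rank 108 among all genes. Fhl1 was the nearest to Flnc (0.29, rank 38), followed by Xirp1 (0.29, rank 40). Because the values were centred but not scaled, the distance also depends on the size of the change between the groups.

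Other genes of the same structures were examined as lists. Of all 15156 genes with a retained probe, 737 had an adjusted p under 0.05 upward and 80 downward. Past 2-fold as well were 235 upward and 12 downward. These counts are the background for every list of genes. Of 28 retained genes of the Z-disc and titin partners, 3 rose past 2-fold, 7 had an adjusted p under 0.05, all upward, and 21 did not pass. Those past 2-fold were Hspb7 at 1.32 and Hspb1 at 1.30, small heat shock proteins that bind sarcomeric and cytoskeletal proteins, and Pdlim7 at 1.05, an adaptor on actin filaments. Tcap, which caps titin at the Z-disc, was lowest at -0.34 (adjusted p = 0.442). The median of this list, 0.28, was close to that of the relatives, and the count of 7 was 4 without MI replicate 1, MI replicate 3, MI replicate 4 or sham replicate 4.

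Of 22 genes of focal adhesions and costameres, which tie the Z-disc to the cell membrane, 6 had an adjusted p under 0.05, all upward, and 1, the fibronectin receptor chain Itga5, rose past 2-fold, by 2.13 ± 0.20 (SE). The median was 0.42. Of 28 genes of the cytosolic actin and tubulin cytoskeleton, 16 had an adjusted p under 0.05, all upward, and the median was 0.66. Past 2-fold were Tubb6, a beta-tubulin, at 2.10 ± 0.15 (SE) and Enah, which promotes actin filament growth, at 1.98 ± 0.15 (SE). Ezr was lowest at -0.10 (adjusted p = 0.895). The count of 16 was 10 without MI replicate 3, 9 without sham replicate 2 and 8 without sham replicate 4.

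Among 20 genes of the SRF, MRTF and YAP axis, the transcription factors through which actin state and stretch reach the nucleus together with known targets, 3 had an adjusted p under 0.05, all upward, and the median was 0.20. The actin genes Acta2 and Acta1 rose past 2-fold, by 1.45 ± 0.27 (SE) and 1.26 ± 0.26 (SE), and Mrtfb was lowest at -0.52 ± 0.15 (SE, adjusted p = 0.131). The count of 3 was 1 without MI replicate 4 or sham replicate 2 and 0 without MI replicate 1, MI replicate 3, sham replicate 3 or sham replicate 4. Acta2 did not pass the adjusted threshold without MI replicates 1 or 3 or sham replicates 2, 3 or 4. The median of 12 genes listed as load-responsive was 1.23, and none fell past 2-fold. A response to load was not tested. Of these genes, 6 did not reach an adjusted p under 0.05, and 6 rose past 2-fold with an adjusted p under 0.05. Those that rose were the cytokine Gdf15 at 3.32 ± 0.22 (SE), Hmox1 at 2.12, the receptor Tnfrsf12a at 1.75, the natriuretic peptide gene Nppb at 1.68 ± 0.24 (SE), Acta1 and Rcan1 at 1.20. The natriuretic peptide gene Nppa was also past 2-fold, at 1.38 ± 0.53 (SE), but its groups overlapped (limma adjusted p = 0.242). Atp2a2, the calcium pump of the sarcoplasmic reticulum, was lowest at -0.36 (adjusted p = 0.723).

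**Figure D4:**
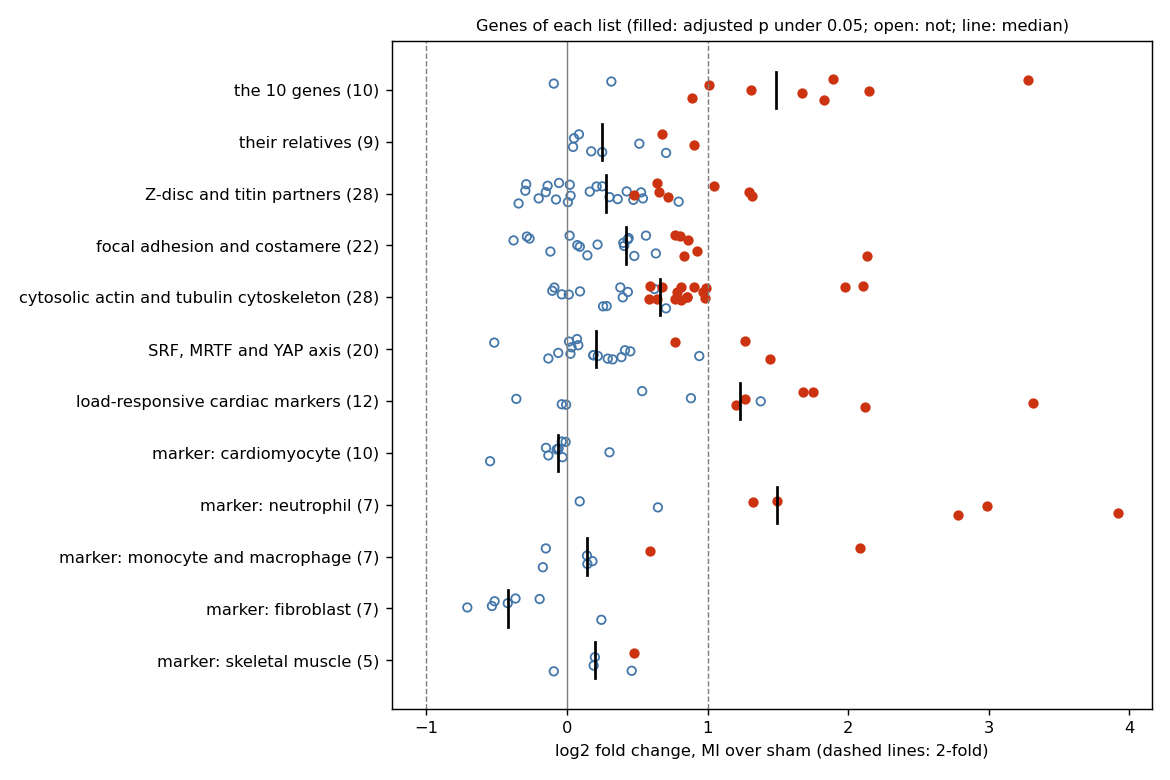
Log2 fold change of MI over sham-operated mice (horizontal axis) for the retained genes of each list, with the number of genes in brackets, filled red points for an adjusted p under 0.05, open blue points otherwise and a black line at the median. The 10 genes have a median of 1.49, their relatives 0.25, the cytosolic actin and tubulin list 0.66 and the cardiomyocyte markers -0.06.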

How the data were processed

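Processed signals of 8 one-colour arrays (4 MI and 4 sham-operated mice) were used. Per the file headers, the deposited intensities came from Feature Extraction 11.0.1.1, with local background subtracted and spatial trends removed, and had no normalization between arrays. The median signals of spots and local backgrounds were also deposited as intensities. The deposited log2 values of the authors had been normalized on spike-in probes with the packages limma and vsn. Here the vsn model, a scale and an additive constant for each array, was fitted to 234 spots of 7 spike-in probes. Spots with outlier flags were left out, and spots of a probe were averaged. Controls were removed, as were probes that exceeded background clearly on fewer than 4 arrays, so that 34038 remained.

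MI and sham-operated mice were compared in limma 3.58.1 (R 4.3.3) without covariates, with Benjamini-Hochberg adjustment over all retained probes. A probe was called past 2-fold with an adjusted p under 0.05. Single values and pairs were compared by an exact two-sided permutation test over 70 splits of the mice. Each gene was taken by its brightest retained probe, named through the transcript given for the probe and RefSeq annotation of GRCm38.p6, and levels of different probes were not compared. Named in the text are the 10 genes, their relatives with a retained probe, up to 5 called genes and the extremes of each list, the 3 brightest markers of a cell type, markers of skeletal muscle not retained, and the 5 nearest genes of Ankrd1, Flnc and Fhl2. Genes that the rule would also name are not all reported here. Myoz1 and Nppa were named after their values were seen. The genes and lists were chosen with earlier results of these data known. Python 3.11.15 with numpy 2.4.6, scipy 1.17.1, pandas 2.3.3 and matplotlib 3.10.9 was used, and the fits were tested on simulated data. Alternatives covered normalization, background correction by normexp (offset 50, on median signals), detection filters, the summary of spots, the test (significance analysis of microarrays, or no moderation of the variance), blocks and each mouse left out. Centring on cardiomyocyte markers was added after seeing the data. Precision is limited by there being 8 arrays.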

Additional observations from a re-analysis of the deposited data

How the results depend on the processing

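The count of all probes called, 333, was 1444 with arrays scaled to their 75th percentile (1043 higher in MI mice), 1520 with arrays shifted on spike-in signal but given no constant (1317 higher), 1411 after quantile normalization (952 higher), 1007 in the deposited normalized values (879 higher) and 609 after normexp (545 higher), against 320 higher in the values reported. The median of all probes was 0.03 as reported and between -0.04 and 0.11 in these scalings. Of the 10 genes, 6 or 7 were called past 2-fold and between 6 and 9 had an adjusted p under 0.05 in every setting. Leaving out each mouse gave 262 to 382 probes, 6 to 7 genes past 2-fold and 7 to 8 genes with an adjusted p under 0.05. Without moderation of the variance 235 probes were called, which ended the call of Actn1 (adjusted p = 0.0797) and the adjusted p of Ankrd23 (0.0911). Csrp3 passed in significance analysis of microarrays (0.0334) and with arrays centred on the cardiomyocyte markers (0.041). The cause of these shifts was not tested, and none of the differences of the 10 genes reversed in these settings. The counts of genes with an adjusted p under 0.05 ranged over all settings from 0 to 4 for the relatives, 3 to 13 for the Z-disc list, 4 to 13 for focal adhesions, 5 to 21 for actin and tubulin, 0 to 8 for the SRF list, 3 to 9 for the load-responsive genes, 0 to 2 for cardiomyocyte markers, 0 to 2 for monocyte and macrophage markers, 0 to 2 for smooth muscle markers and 0 to 3 for fibroblast markers. Weak signals near the additive constant, as for Actn1, have the least certain folds.

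Mice of the same replicate number were not paired by the labels, and their deviations correlated with r of 0.28, 0.36, 0.09 and 0.00. These values lay within the range of mice of unlike number, -0.37 to 0.40. With the replicate block, 341 probes, 7 of the 10 genes past 2-fold and 8 with an adjusted p under 0.05 were called.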
